A study of Mus musculus with 16 samples.

Results

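The genes described here are Adamtsl2, the latent TGF-beta binding protein genes Ltbp1, Ltbp2, Ltbp3 and Ltbp4, the fibrillin genes Fbn1 and Fbn2, and the ligand genes Tgfb1, Tgfb2 and Tgfb3. They are 10 of the 21640 genes counted in mouse thyroid, and they were chosen by name as a family after Adamtsl2 and Ltbp2 had been seen to differ strongly, and in opposite directions, between the diets at 3 weeks. The differences at 3 weeks are therefore given as a description with no test. The mice of 6 weeks are other animals, and the diet comparison was tested in them.

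RNA of whole thyroid was sequenced from 16 male wild-type C57Bl/6J mice, 1 library per mouse, that entered their diets at an age of 8 weeks. The groups, of 4 mice each, were chow as the control diet (CD) for 3 weeks, a high-fat diet with sucrose in the drinking water (HF+SD) for 3 weeks, CD for 6 weeks and HF+SD for 6 weeks. For the later time point, the paper's own RNA comparison lists fewer CD mice than there are CD libraries. Which mouse was left out there is not stated. All 4 CD libraries of 6 weeks were kept in the main tests given here. No mouse carried a transgene or an engineered allele. The comparisons ask how overnutrition changes thyroid RNA at each time point, and the time points were not compared with each other because the libraries of each came from a separate library project, so that time and project cannot be told apart.

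TGF-beta is secreted in a latent complex with its own propeptide, and LTBPs 1, 3 and 4 bind this complex covalently and anchor it in the extracellular matrix. Fibrillins form the microfibrils to which LTBPs attach, and ADAMTSL2 is a secreted glycoprotein related to the ADAMTS proteases, without their catalytic domain, that binds LTBP1 and fibrillin-1. In the thyroid, TGF-beta is known as an inhibitor of follicular cell growth and of thyroid-specific gene expression.

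Library totals ran from 30025256 to 48508653 counts, and the biological coefficient of variation was 18.2% at 3 weeks and 31.2% at 6 weeks. All 8 thyrocyte markers were detected in every library, where they made up 27.2% to 30.1% of counts in CD and 28.3% to 30.5% in HF+SD at 3 weeks, and 4.83% to 11.7% in CD and 10.2% to 14.6% in HF+SD at 6 weeks. Their most abundant member was Tg, the thyroglobulin gene, and 3 of the 8 were called higher in HF+SD at each time point. Libraries of the CD group at 6 weeks stood apart in skeletal muscle RNA: 12 muscle genes, led by the myosin gene Myh4, took 0.0712% of the counts in mouse M22, 2.54% in mouse M43, 10.5% in mouse M45 and 7.71% in mouse M48. The same genes took 0.0855% to 0.305% of counts in HF+SD at 6 weeks, 0.000270% to 0.00507% in CD at 3 weeks and 0.00156% to 0.00403% in HF+SD at 3 weeks, where up to 2 of the 12 were at 0 in a mouse, and all 12 were called lower in HF+SD at 6 weeks. Parathyroid markers, led by Pth, made up 1.71% of the counts of M22 against 0.156% to 0.451% in the other CD mice of 6 weeks and 0.0507% to 0.206% in HF+SD, and none of the 3 was called. Endothelial markers, led by Kdr, summed to 284 to 355 CPM in CD and 967 to 1067 CPM in HF+SD at 6 weeks, with 6 of 6 called higher, and to 373 to 476 and 668 to 952 CPM at 3 weeks, with 1 of 6 called higher. Smooth muscle and pericyte markers, led by Rgs5, summed to 435 to 548 and 1096 to 1186 CPM at 6 weeks, with 5 of 7 called higher, and to 362 to 427 and 453 to 716 CPM at 3 weeks, with 0 of 7 called. Fibroblast markers, led by Dcn, summed to 614 to 1178 and 615 to 862 CPM at 6 weeks and to 440 to 699 and 524 to 636 CPM at 3 weeks, and 0 of 7 were called at either time point. They moved both ways, with 3 higher and 4 lower at 6 weeks and 4 higher and 3 lower at 3 weeks. Dcn at 6 weeks (log2 fold change -0.82, adjusted p = 0.0293 by edgeR) missed only the fold minimum. So did Col1a1 (0.84, adjusted p = 0.0144) and Col1a2 (0.68, adjusted p = 0.0403) at 3 weeks. Macrophage markers, led by C1qb, summed to 93.3 to 111 and 157 to 194 CPM at 6 weeks and to 86.3 to 111 and 89.3 to 121 CPM at 3 weeks. Of these, 0 of 5 were called at each, although at 6 weeks all 5 lay higher, with a median log2 fold change of 0.74. Adgre1, Csf1r, C1qa and C1qb had an adjusted p under 0.05 by edgeR at 6 weeks and missed only the fold minimum. Adipocyte markers, led by Adipoq, had 2 of 5 called lower at 3 weeks and 3 of 5 at 6 weeks, and C cell markers, led by Calca, had 0 of 2 and 1 of 2 called lower. Cartilage markers, led by Col11a2, had 0 of 6 called at 3 weeks and 1 of 5 called higher at 6 weeks with a summed level of at most 25.7 CPM. In whole tissue, fewer cells of a type and less RNA per cell cannot be told apart.

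Values are CPM, the count of a gene relative to its library's total after TMM adjustment within each time point. A gene was called when the adjusted p of edgeR's quasi-likelihood test was under 0.05 and its log2 fold change, HF+SD minus CD, lay beyond 1 in either direction. All 10 genes passed the filter on low counts at both time points. By this rule 4 of the 10 were called at 6 weeks, with Adamtsl2, Ltbp4 and Tgfb1 higher and Ltbp2 lower in HF+SD, against 12.6% of the 18249 genes tested (6.64% higher and 6.01% lower). The same rule at 3 weeks marked Adamtsl2 as higher and Ltbp2 as lower, beside 4.66% of 17238 genes (3.25% higher and 1.40% lower), and that contrast chose the genes. The 4 CD and 4 HF+SD values did not overlap for 5 of the 10 genes at 6 weeks, where 23.8% of all tested genes had no overlap, and for 6 of the 10 at 3 weeks, where 23.6% had none. The median log2 fold change of the 10 was 0.57 at 6 weeks and 0.46 at 3 weeks, against -0.01 for all tested genes at each.

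**Figure D1:**
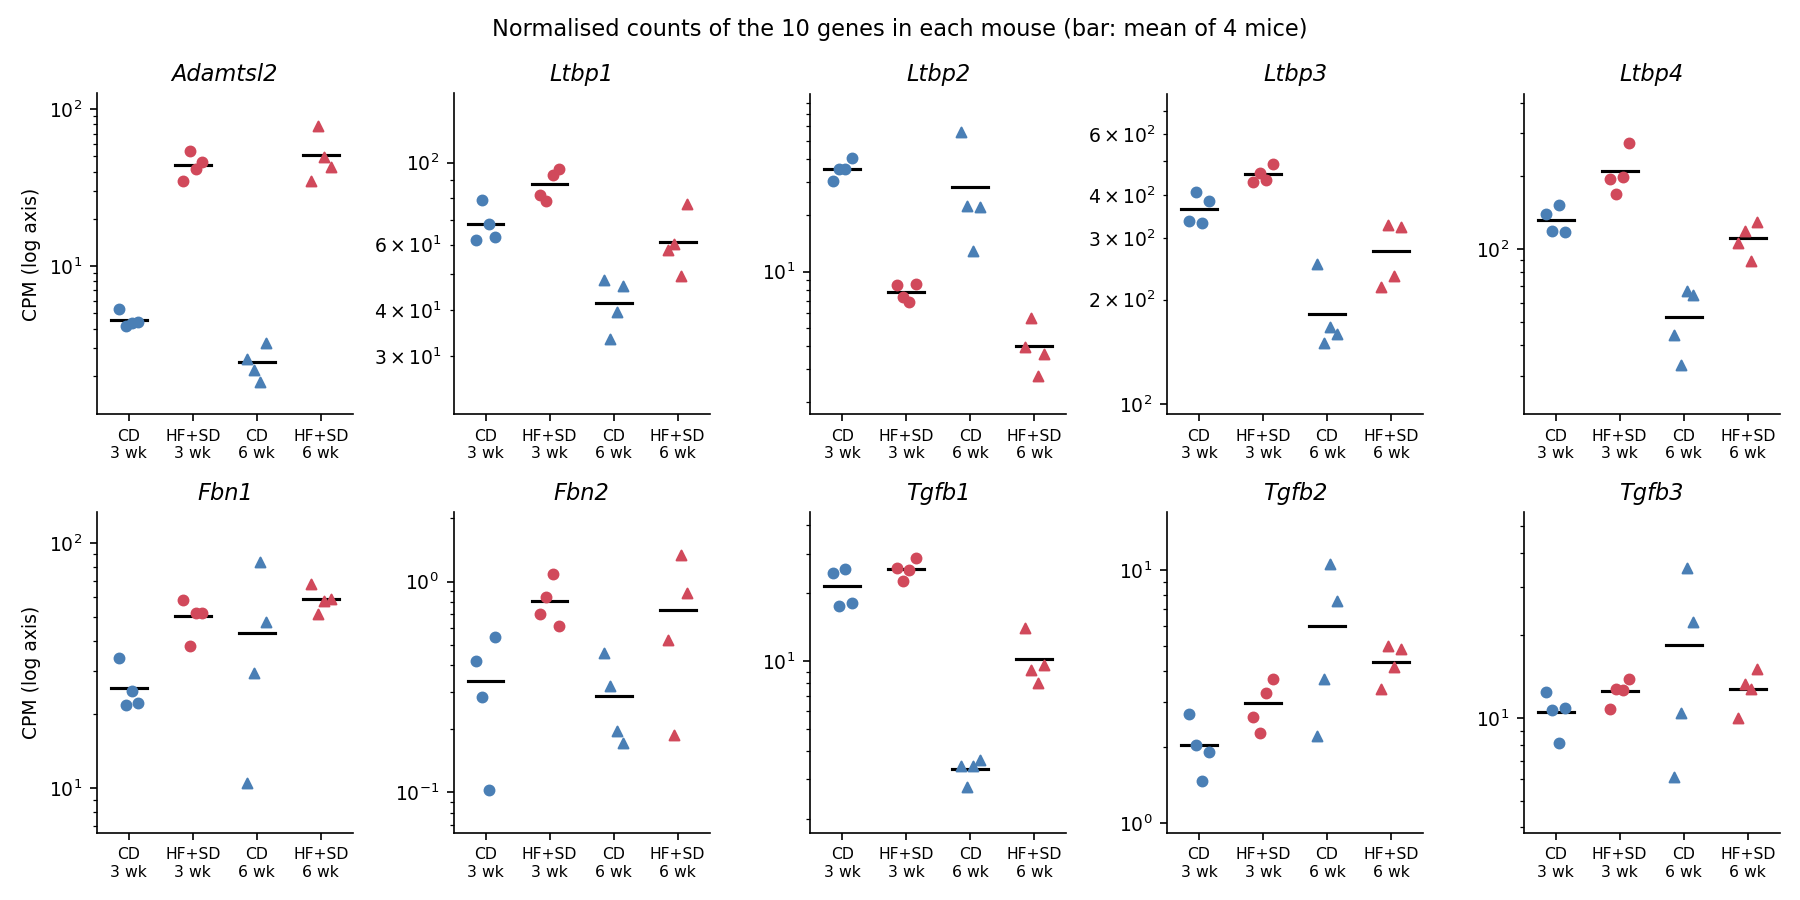
CPM of the 10 genes on log axes, 1 point per mouse, circles for 3 weeks and triangles for 6 weeks, CD in blue and HF+SD in red, with a bar at the mean of 4 mice. Adamtsl2 lies at 1.82 to 5.30 CPM in the CD mice and at 34.6 to 78.7 CPM in the HF+SD mice, whereas Ltbp2 lies lower in every HF+SD mouse than in any CD mouse of the same time point.

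Adamtsl2 was the gene of the family with the largest diet difference at both time points. In the CD mice of 6 weeks it measured 2.55, 2.17, 1.82 and 3.24 CPM, and in the HF+SD mice 34.6, 78.7, 49.6 and 42.9 CPM. Every HF+SD mouse lay above every CD mouse. Group means stood at 2.45 ± 0.609 CPM and 51.5 ± 19.2 CPM (SD, n = 4 each). This is a log2 fold change of 4.39 (SE 0.31), or 21.0-fold, with an adjusted p of 0.000103 by edgeR's quasi-likelihood test. The mice of 3 weeks had 5.30, 4.17, 4.35 and 4.38 CPM on CD and 34.8, 54.5, 41.8 and 46.2 CPM on HF+SD. These groups were also separate, with means of 4.55 ± 0.507 and 44.3 ± 8.25 CPM (SD, n = 4 each) and a log2 fold change of 3.28 (SE 0.15). Without the 2 CD libraries richest in muscle RNA, M45 and M48, the difference at 6 weeks was 4.46 on the log2 scale, and it was called under every alternative run, between 3.78 and 4.55.

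Of the other ADAMTSL-type genes, which share the domain layout of secreted, protease-free relatives of the ADAMTS enzymes, none of 6 was called at either time point (Adamtsl1, Adamtsl3, Adamtsl4, Adamtsl5, Thsd4 and Papln), although 2 were called lower at 6 weeks under thyrocyte scaling. Their median log2 fold change was -0.22 at 3 weeks and -0.39 at 6 weeks. At an unadjusted p under 0.05 by edgeR's quasi-likelihood test, 2 of the 6 passed at 3 weeks and 1 at 6 weeks, and DESeq2 and limma also called 0. Adamtsl3 was higher at 3 weeks, without overlap, and missed only the fold minimum (log2 fold change 0.57, adjusted p = 0.0233 by edgeR).

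Ltbp2 encodes the LTBP that does not bind latent TGF-beta and is known as a microfibril and elastic fibre protein. It was lower on HF+SD. The CD mice of 6 weeks had 56.0, 22.3, 13.0 and 22.1 CPM, and the HF+SD mice 3.96, 5.68, 2.76 and 3.63 CPM. No values overlapped, although the CD mice ranged widely, M22 being the highest and M45 the lowest. The means were 28.4 ± 18.97 CPM and 4.01 ± 1.22 CPM (SD, n = 4 each), the log2 fold change was -2.82 (SE 0.45), or 7.08-fold lower, and the adjusted p was 0.00319 by edgeR's quasi-likelihood test. Values on CD were closer together at 3 weeks, at 30.5, 35.2, 35.4 and 40.5 CPM, and the HF+SD mice had 8.50, 7.29, 6.90 and 8.60 CPM. The log2 fold change there was -2.18 (SE 0.12), with means of 35.4 ± 4.07 and 7.82 ± 0.855 CPM (SD, n = 4 each). M22 also had the highest parathyroid share among the CD mice of 6 weeks, and without it the log2 fold change at 6 weeks was -2.25 (adjusted p = 0.000712 by edgeR's quasi-likelihood test). Parathyroid shares on CD at 3 weeks were 0.313% in M53, 0.00380% in M54, 0.135% in M55 and 0.0665% in M96. Their Ltbp2 levels were 30.5, 35.2, 35.4 and 40.5 CPM in that order. The part of parathyroid RNA in the Ltbp2 levels was not tested beyond leaving out M22. Without M45 and M48 the log2 fold change at 6 weeks was -3.28. Over all alternatives the 6-week difference stayed called, between -3.47 and -2.25. An antisense gene, D030025P21Rik, shares 764 exonic bases with Ltbp2 in the GENCODE M21 models and held 1 to 72 counts per library against 95 to 1953 for Ltbp2, and whether counting used strand is not given in the sources used here.

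The promoter windows of these genes are shown because both moved past the threshold at both time points in opposite directions. The sequences come from RefSeq on GRCm38.p6, an older build than the mm39 of the counts, and hold the 250 bases before the start site, read 5′ to 3′ on the gene's strand. The Adamtsl2 stretch is chr2:27079129-27079378 on the plus strand and the Ltbp2 stretch is chr12:84876492-84876741 on the minus strand. Capitals mark matches on either strand to the SMAD box core CAGAC (its reverse complement reads GTCTG), the GC box GGGCGG (reverse complement CCGCCC), the TATA box TATAAA or the cAMP response half-site TGACG, none of which overlap here.
Adamtsl2: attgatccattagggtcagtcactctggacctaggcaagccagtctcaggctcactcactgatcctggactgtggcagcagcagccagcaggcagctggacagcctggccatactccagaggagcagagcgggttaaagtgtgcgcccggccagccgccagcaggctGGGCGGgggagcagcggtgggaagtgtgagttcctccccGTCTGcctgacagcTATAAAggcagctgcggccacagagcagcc
Ltbp2: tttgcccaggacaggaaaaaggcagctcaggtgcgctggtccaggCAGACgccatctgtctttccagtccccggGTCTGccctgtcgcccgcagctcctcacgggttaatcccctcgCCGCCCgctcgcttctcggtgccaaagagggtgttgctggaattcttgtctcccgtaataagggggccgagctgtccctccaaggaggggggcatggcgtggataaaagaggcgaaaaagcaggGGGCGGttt
Adamtsl2 held 1 SMAD core match starting 44 bases before the start site, 1 GC box at 83 bases and 1 TATA box at 30 bases before it. Ltbp2 held SMAD core matches 205 and 176 bases before the start site, GC boxes 133 and 9 bases before it and no TATAAA, and its full window held 3 SMAD cores. Over the full 300-base windows, which add 50 bases after the start, the SMAD core was present in 49.6% of the 32851 RefSeq promoter windows, the GC box in 35.7%, the cAMP half-site in 20.8% and the TATA box in 13.6%. Windows of 8 of the 10 genes were used, without Tgfb3 and Fbn2. SMAD cores stood also in the windows of Ltbp1, Ltbp3 and Tgfb2, and GC boxes in those of Fbn1, Ltbp4 and Tgfb1, where Tgfb1 had 6 and no match to the other motifs. A match describes letters in a window, and no binding was measured.

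**Figure D2:**
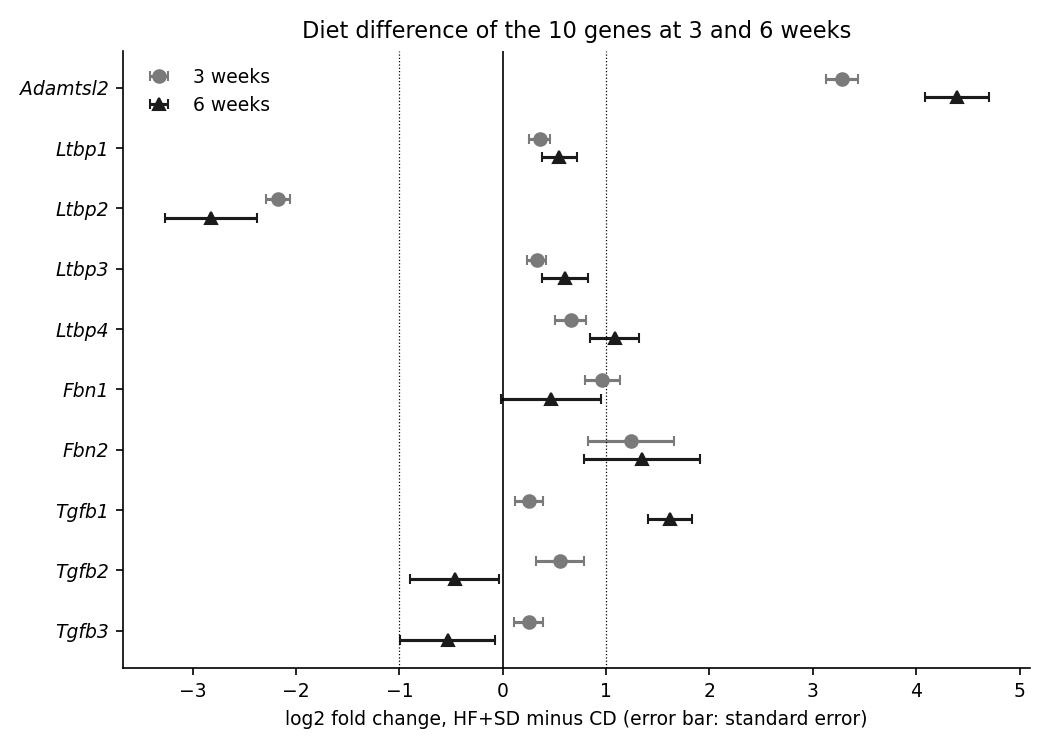
Log2 fold change (HF+SD minus CD) of each gene with its standard error, circles for 3 weeks and triangles for 6 weeks, with dotted lines at the fold minimum of 1 in each direction. Adamtsl2 (3.28 and 4.39) and Ltbp2 (-2.18 and -2.82) lie farthest from 0, and the error bars of Fbn1, Fbn2, Tgfb2 and Tgfb3 are wide at 6 weeks.

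The LTBPs that carry latent TGF-beta lay higher on HF+SD by smaller amounts, although scaling to thyrocyte genes turned Ltbp1 to -0.057 at 6 weeks and Ltbp1 and Ltbp3 to -0.12 and -0.15 at 3 weeks on the log2 scale. Ltbp4, which is known for its part in elastic fibre assembly together with fibulin-5, measured 44.2, 33.2, 67.1 and 64.5 CPM in the CD mice of 6 weeks and 106, 119, 88.9 and 129 CPM in the HF+SD mice. The groups did not overlap. From 52.3 ± 16.3 to 111 ± 17.4 CPM (SD, n = 4 each), the log2 fold change was 1.08 (SE 0.23), with an adjusted p of 0.0132 by edgeR's quasi-likelihood test. This call was lost without M43, at 0.88, through the fold minimum alone, since its adjusted p by edgeR was then 0.0223, and under thyrocyte scaling, at 0.42 (adjusted p = 0.298 by edgeR). Ltbp4 measured 139, 119, 152 and 118 CPM on CD and 195, 168, 198 and 273 CPM on HF+SD in the mice of 3 weeks, a log2 fold change of 0.66 (SE 0.15) without overlap.

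Ltbp1, the classical partner of latent TGF-beta and a ligand of ADAMTSL2, had 48.2, 33.4, 39.4 and 46.4 CPM on CD and 57.9, 60.1, 49.5 and 77.1 CPM on HF+SD at 6 weeks. The highest CD mouse lay just under the lowest HF+SD mouse. Its log2 fold change was 0.55 (SE 0.17), under the fold minimum, and its adjusted p of 0.0499 by edgeR's quasi-likelihood test lay at the threshold, so that over the alternatives it ranged from 0.0261 to 0.840. At 3 weeks the values were 61.7, 79.1, 68.2 and 63.0 CPM against 81.7, 78.9, 92.5 and 96.1 CPM, which overlapped by 1 mouse, for a log2 fold change of 0.36 (SE 0.10).

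Ltbp3, an LTBP known for its role in bone and tooth development, was the most abundant of the 10. Its CD values at 6 weeks were 253, 149, 166 and 159 CPM, of which M22 stood apart, and its HF+SD values were 217, 329, 234 and 323 CPM. The groups overlapped through M22. The log2 fold change of 0.60 (SE 0.22) did not pass, with an adjusted p of 0.0816 by edgeR's quasi-likelihood test, and without M22 it was 0.81 (adjusted p = 0.0112, still under the fold minimum). At 3 weeks Ltbp3 measured 336, 407, 331 and 386 CPM on CD and 437, 464, 442 and 490 CPM on HF+SD, without overlap, a log2 fold change of 0.33 (SE 0.09).

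Levels of different genes were compared per kb of exonic length (GENCODE M21 models). The LTBP messages together were mostly Ltbp3, whose share of their summed CPM per kb was 56.3% ± 4.01 on CD and 55.3% ± 3.73 on HF+SD at 3 weeks and 56.3% ± 4.77 and 56.4% ± 3.34 at 6 weeks (SD, n = 4 each). The Ltbp2 share was 9.32% ± 4.29 on CD and 0.911% ± 0.214 on HF+SD at 6 weeks, where the CD mice spanned 4.66% to 14.9% and the HF+SD mice 0.700% to 1.14% (6.06% ± 0.626 and 1.04% ± 0.108 at 3 weeks). Ltbp4 made up 23.3% ± 7.67 and 32.0% ± 2.36 at 6 weeks, with ranges of 14.9% to 30.6% and 30.2% to 35.5% that touched, and 28.7% ± 4.39 and 34.8% ± 3.84 at 3 weeks. These shares have no test of their own.

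**Figure D3:**
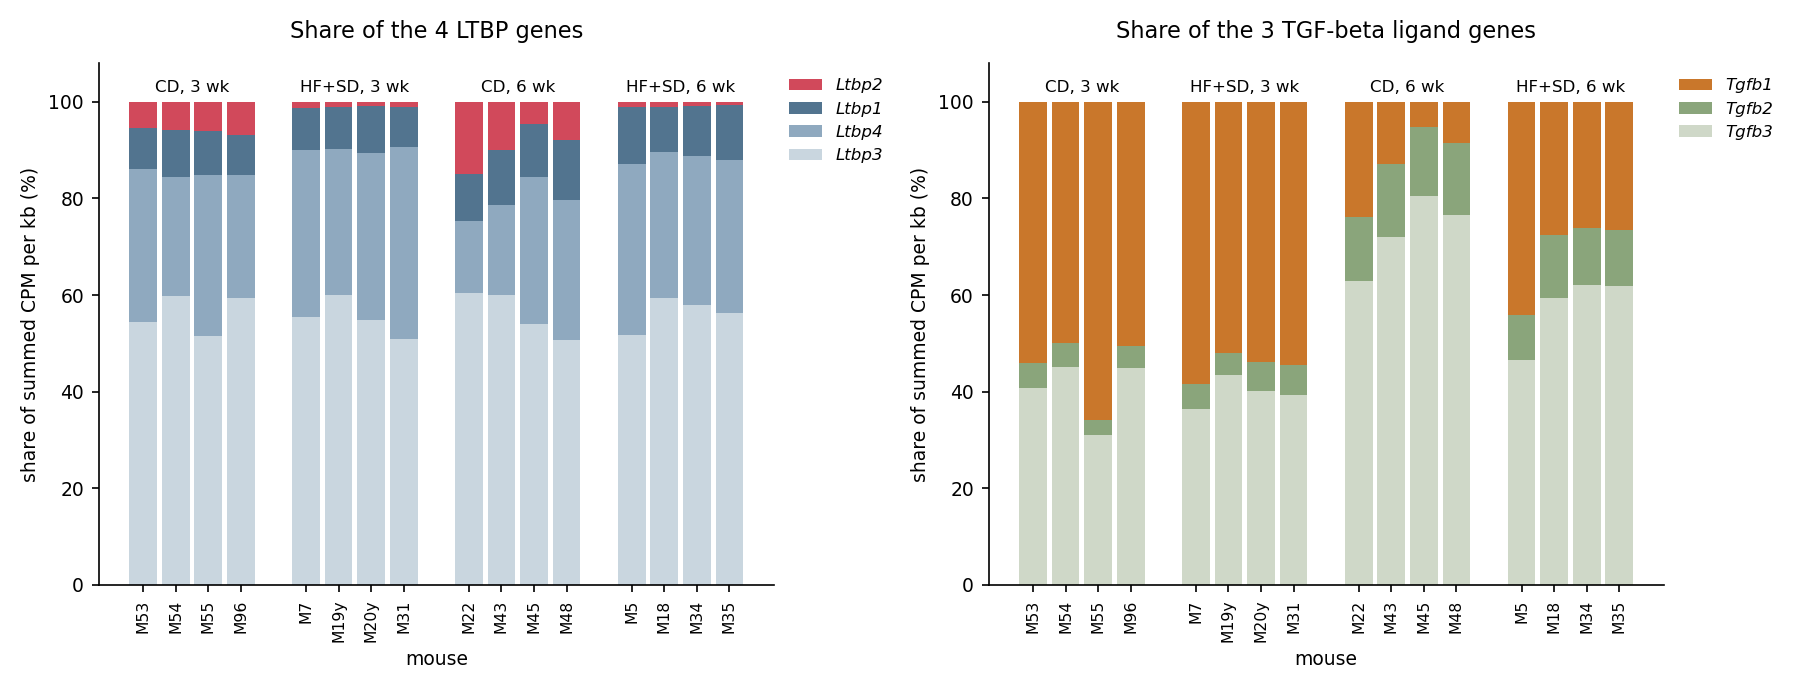
Stacked share of each gene in the summed CPM per kb, 1 bar per mouse, for the 4 LTBP genes and the 3 ligand genes. Ltbp2 (red) takes 4.66% to 14.9% of the LTBP sum in CD mice and 0.700% to 1.19% in HF+SD mice, and Tgfb1 (orange) takes 5.29% to 23.8% of the ligand sum in CD mice of 6 weeks and 26.2% to 44.1% in HF+SD mice of 6 weeks.

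Among the ligands, Tgfb1, the most widely expressed TGF-beta and an inhibitor of thyrocyte growth in culture, rose at 6 weeks. It measured 3.44, 2.79, 3.44 and 3.67 CPM on CD and 14.1, 9.16, 8.03 and 9.62 CPM on HF+SD. The CD mice lay within 1 CPM of each other and all below the HF+SD mice. The means were 3.34 ± 0.381 and 10.2 ± 2.66 CPM (SD, n = 4 each), and the log2 fold change was 1.62 (SE 0.21), or 3.06-fold, with an adjusted p of 0.00129 by edgeR's quasi-likelihood test. It was called under every alternative, between 1.03 and 1.73, and was 1.73 without M45 and M48. The mice of 3 weeks had 24.6, 17.6, 25.7 and 18.2 CPM on CD and 25.8, 22.8, 25.4 and 28.7 CPM on HF+SD, which overlapped, for a log2 fold change of 0.25 (SE 0.14) that thyrocyte scaling turned to -0.24. The Tgfb1 share of the ligand sum per kb was 12.6% ± 8.09 on CD and 31.1% ± 8.71 on HF+SD at 6 weeks, and 55.1% ± 7.39 and 54.7% ± 2.63 at 3 weeks (SD, n = 4 each).

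Tgfb3 and Tgfb2, ligands known from development of mesenchymal tissues, showed no difference past the threshold at 6 weeks, and their CD mice spread widely. Tgfb3 measured 6.11, 10.4, 35.2 and 22.4 CPM on CD and 9.99, 13.3, 12.8 and 15.1 CPM on HF+SD, for a log2 fold change of -0.53 (SE 0.46) and an adjusted p of 0.441 by edgeR's quasi-likelihood test. Tgfb2 measured 2.21, 3.70, 10.6 and 7.56 CPM on CD and 3.40, 5.02, 4.13 and 4.86 CPM on HF+SD, for -0.47 (SE 0.43) and an adjusted p of 0.469. For both genes the CD mice ran in the order M22, M43, M48, M45, the same order as their share of skeletal muscle counts, and their HF+SD mice lay inside the CD range. Without M45 and M48 the sign turned, to 0.64 for Tgfb3 (adjusted p = 0.179 by edgeR) and 0.56 for Tgfb2 (adjusted p = 0.264), and with a skeletal muscle score as a covariate it was 0.78 and 0.70, none past the threshold. At 3 weeks, where muscle counts were at most 0.00507% of a library, Tgfb3 measured 8.10 to 12.5 CPM on CD and 10.8 to 13.8 CPM on HF+SD (log2 fold change 0.25, SE 0.14), and Tgfb2 1.47 to 2.70 CPM and 2.28 to 3.70 CPM (0.55, SE 0.23). Both pairs of groups overlapped.

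Fbn1 encodes fibrillin-1, the main microfibril protein of adult tissue. At 6 weeks its CD values were 10.6, 29.6, 83.4 and 47.6 CPM and its HF+SD values 67.9, 51.3, 57.7 and 59.2 CPM. M22, M43 and M48 lay below all HF+SD mice and M45 above them, again in the order of the muscle share. The log2 fold change was 0.46 (SE 0.48), with means of 42.8 ± 31.02 and 59.0 ± 6.84 CPM (SD, n = 4 each) and an adjusted p of 0.526 by edgeR's quasi-likelihood test. Without M45 and M48 it was 1.56 (adjusted p = 0.0401 by edgeR), and with the muscle score as a covariate 2.07 (adjusted p = 0.00110), both past the threshold, whereas thyrocyte scaling turned it to -0.30 (adjusted p = 0.686). The CD mice of 3 weeks had 33.9, 21.8, 24.9 and 22.4 CPM and the HF+SD mice 58.7, 38.1, 51.9 and 52.0 CPM. Those groups were separate, with a log2 fold change of 0.96 (SE 0.17). The predicted gene Gm9913 overlaps 2442 exonic bases of Fbn1 on the opposite strand and held 0 to 9 counts per library against 368 to 2574 for Fbn1. The part of muscle RNA in the levels of Fbn1, Tgfb2 and Tgfb3 was not tested beyond these fits.

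**Figure D4:**
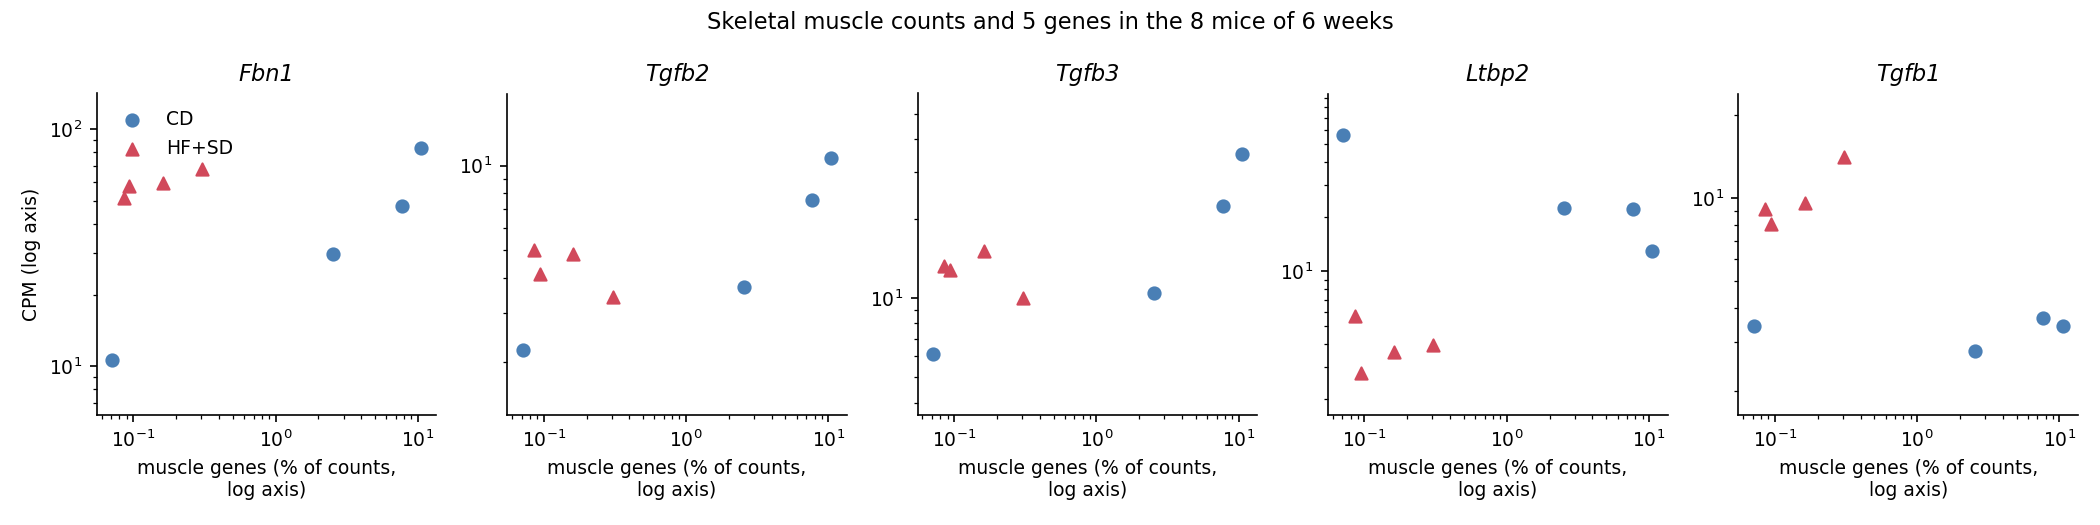
CPM of Fbn1, Tgfb2, Tgfb3, Ltbp2 and Tgfb1 against the share of counts taken by 12 skeletal muscle genes in the 8 mice of 6 weeks, CD as blue circles and HF+SD as red triangles, all axes log. In the 4 CD mice Fbn1, Tgfb2 and Tgfb3 run from lowest in M22 (0.0712% muscle counts) to highest in M45 (10.5%), Ltbp2 is highest in M22 at 56.0 CPM and lowest in M45 at 13.0 CPM, and Tgfb1 stays between 2.79 and 3.67 CPM.

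Fbn2 encodes a fibrillin used mostly in embryonic microfibrils, and it was near the detection limit, with 4 to 46 counts per library. It measured 0.459, 0.320, 0.195 and 0.171 CPM on CD and 0.527, 0.188, 1.34 and 0.886 CPM on HF+SD at 6 weeks, with overlap through M18. The log2 fold change of 1.34 (SE 0.56) did not pass, with an adjusted p of 0.116 by edgeR's quasi-likelihood test. The 3-week values were 0.421, 0.282, 0.103 and 0.544 CPM on CD and 0.699, 0.845, 1.09 and 0.613 CPM on HF+SD, separate by a small margin, for 1.24 (SE 0.42).

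Ranked by mean CPM per kb, Ltbp3 and Ltbp4 were the first and second of the 10 genes in all 4 groups and Fbn2 the last. In CD at 6 weeks Adamtsl2 was rank 9 at 0.306 ± 0.0762 CPM per kb, and in HF+SD it was rank 3 at 6.44 ± 2.40 (SD, n = 4 each), where its range overlapped that of Ltbp1 at rank 4. Ltbp2 went from rank 6 at 3.47 ± 2.32 CPM per kb to rank 9 at 0.489 ± 0.149, where it overlapped Tgfb2 at rank 8. In CD at 3 weeks Adamtsl2 held rank 8 at 0.569 ± 0.0634 and Ltbp2 rank 4 at 4.33 ± 0.498 CPM per kb, with Ltbp2 overlapping Tgfb1 at rank 5. In HF+SD at 3 weeks Adamtsl2 held rank 4 at 5.54 ± 1.03 and overlapped Tgfb1, and Ltbp2 held rank 8 at 0.956 ± 0.104 CPM per kb, apart from both of its neighbours. The ranges of ranks 2 to 7 in CD at 6 weeks each overlapped the next, so their order there is not beyond the spread between mice.

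Genes outside the family whose pattern over the 16 libraries was most like that of these members were found by the Pearson correlation of log2 CPM, after the mean of each time point was subtracted, over 17014 genes. The libraries share the diet split, so the values are a description only. Closest to Adamtsl2 were Mybpc3, a gene of a sarcomere protein (r = 0.99), Hydin, a gene of a ciliary protein (r = 0.99), and the mitotic genes Pbk (r = 0.98) and Cdc25c (r = 0.98). Ltbp2 was matched most closely by Tmem213 (r = 0.97), Ptgds, a prostaglandin D synthase (r = 0.97), the potassium channel gene Kcnk3 (r = 0.96) and 1500015O10Rik (r = 0.96).

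The wider pathway was described by 87 distinct genes in 7 lists, which were chosen with earlier results of these data known. The shares called are therefore a description only. Of the 87 genes, 86 were tested. At 6 weeks 23 were called higher and 1 lower, which is 27.9% of those tested against the 12.6% of all genes, with a median log2 fold change of 0.63. At 3 weeks 9 were called higher and 1 lower, 11.6% against 4.66%, with a median of 0.28. The 8 genes called in the same direction at both were Eng, Tgfbi, Pmepa1, Adamts4, Adamts13, Adamts16, Eln and Loxl4. The endothelial and smooth muscle markers given above moved in the same direction at 6 weeks. At 3 weeks 6 of 6 endothelial and 6 of 7 smooth muscle markers also lay higher. The part of these markers' cell types in the pathway counts was not tested. Scaling to thyrocyte genes instead of TMM gave 9 higher and 6 lower at 6 weeks and 3 higher and 7 lower at 3 weeks, and scaling to fibroblast genes gave 19 and 1 at 6 weeks and 5 and 4 at 3 weeks. By list, thyrocyte scaling at 6 weeks left 0 higher and 1 lower among the latency genes, 2 and 2 among the Smads, 3 and 0 among the responsive genes, 0 and 2 in the ADAMTSL family, 3 and 1 among the ADAMTS proteases and 2 and 0 among the elastic fibre genes.

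Of 17 genes that keep TGF-beta latent or release it, 2 were called higher at 6 weeks, namely Nrros, which anchors latent TGF-beta on myeloid cells (5.24 ± 0.502 to 11.9 ± 2.81 CPM, log2 fold change 1.18, SE 0.19, adjusted p = 0.00372 by edgeR), and Plat, the tissue plasminogen activator gene (8.62 ± 3.21 to 18.6 ± 2.16 CPM, 1.11, SE 0.27). At 3 weeks 1 of 17 was called, the integrin gene Itgb8, whose product activates latent TGF-beta and which was lower (25.6 ± 7.72 to 10.6 ± 1.65 CPM, log2 fold change -1.27, SE 0.21). Both shares lie near those of all genes, 12.6% and 4.66%. The count at 6 weeks was 3 higher and 1 lower without M22 and 1 higher without M35, and thyrocyte scaling gave 3 lower at 3 weeks.

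Of the 5 receptor genes only Eng, the co-receptor endoglin of endothelial cells, was called. Its level went from 27.5 ± 10.2 to 149 ± 35.9 CPM at 6 weeks (log2 fold change 2.44, SE 0.30, adjusted p = 0.000919 by edgeR) and from 67.2 ± 13.6 to 211 ± 50.6 CPM at 3 weeks (1.65, SE 0.19). Beside it, 6 of 6 endothelial markers were called higher at 6 weeks and 1 of 6 at 3 weeks. At 3 weeks all 6 lay higher, with a median log2 fold change of 0.80 and an adjusted p under 0.05 by edgeR for each. The 5 not called there missed only the fold minimum. The receptor gene Acvrl1 missed only the fold minimum at both time points. Its log2 fold change was 0.76 at 6 weeks (adjusted p = 0.0379 by edgeR) and 0.65 at 3 weeks (adjusted p = 0.00333), without overlap at 3 weeks only. Among 11 Smads and their regulators none was called at 3 weeks (1 higher without M54), and at 6 weeks the 2 called were the inhibitory Smads, Smad6 (7.01 ± 2.25 to 26.4 ± 8.30 CPM, 1.91, SE 0.31, adjusted p = 0.00331) and Smad7 (4.83 ± 1.18 to 14.9 ± 3.92 CPM, 1.62, SE 0.25, adjusted p = 0.00291).

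Genes known to respond to TGF-beta had 6 of 16 called higher at 6 weeks and 3 of 16 at 3 weeks, with none lower and medians of 1.05 and 0.61. The direction at 3 weeks rested on the scaling, since thyrocyte scaling gave 0 higher and 3 lower and fibroblast scaling 0 higher and 2 lower, and the count of 3 was 5 without M53 and 1 without M96. By smallest adjusted p the first at 6 weeks were Tagln, an actin-binding protein of smooth muscle that also stands in the smooth muscle list (43 ± 3.52 to 111 ± 7.13 CPM, log2 fold change 1.37, SE 0.12), Tgfbi, a matrix protein induced by TGF-beta (37.5 ± 5.68 to 83.6 ± 7.57 CPM, 1.15, SE 0.14), and Smad7. At 3 weeks the called genes were Pmepa1, a feedback inhibitor of TGF-beta signalling (87.3 ± 11.8 to 187 ± 8.85 CPM, 1.10, SE 0.10), Tgfbi (30.2 ± 5.44 to 65.2 ± 4.28 CPM, 1.11, SE 0.13) and the collagen gene Col3a1 (190 ± 65.8 to 399 ± 60.9 CPM, 1.07, SE 0.22).

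The ADAMTS proteases, the catalytic relatives of ADAMTSL2, had 8 of 18 called higher and 1 lower at 6 weeks and 3 of 18 called higher at 3 weeks, or 5 without M7. Adamts12 (7.94 ± 1.02 to 20.8 ± 0.0743 CPM, log2 fold change 1.39, SE 0.14), Adamts9 (5.60 ± 0.303 to 16 ± 3.75 CPM, 1.52, SE 0.19) and Adamts13, the protease of von Willebrand factor (1.15 ± 0.474 to 5.03 ± 0.763 CPM, 2.12, SE 0.33), led at 6 weeks. Adamts20 was the 1 called lower (3.51 ± 2.76 to 0.654 ± 0.228 CPM, -2.42, SE 0.61). The 3 called at 3 weeks were Adamts13 (2.04, SE 0.20), Adamts16 (1.84, SE 0.20) and Adamts4 (1.40, SE 0.27).

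Elastic fibre and microfibril partners had 6 of 16 called higher at 6 weeks and 2 of 16 at 3 weeks, with none lower. At 3 weeks thyrocyte scaling gave 0 higher and 1 lower, fibroblast scaling gave 0 called, and 1 was called when M53, M54, M96 or M20y was left out. The first at 6 weeks were Efemp1, the gene of fibulin-3 (49.2 ± 4.94 to 110 ± 11.9 CPM, log2 fold change 1.17, SE 0.13), Eln, the elastin gene (14.5 ± 1.81 to 44.8 ± 13.0 CPM, 1.62, SE 0.20), and Loxl4, a crosslinking lysyl oxidase (5.60 ± 1.24 to 20.2 ± 7.38 CPM, 1.85, SE 0.30). Eln and Loxl4 were also the 2 called at 3 weeks, at 1.01 (SE 0.20) and 1.08 (SE 0.15).

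**Figure D5:**
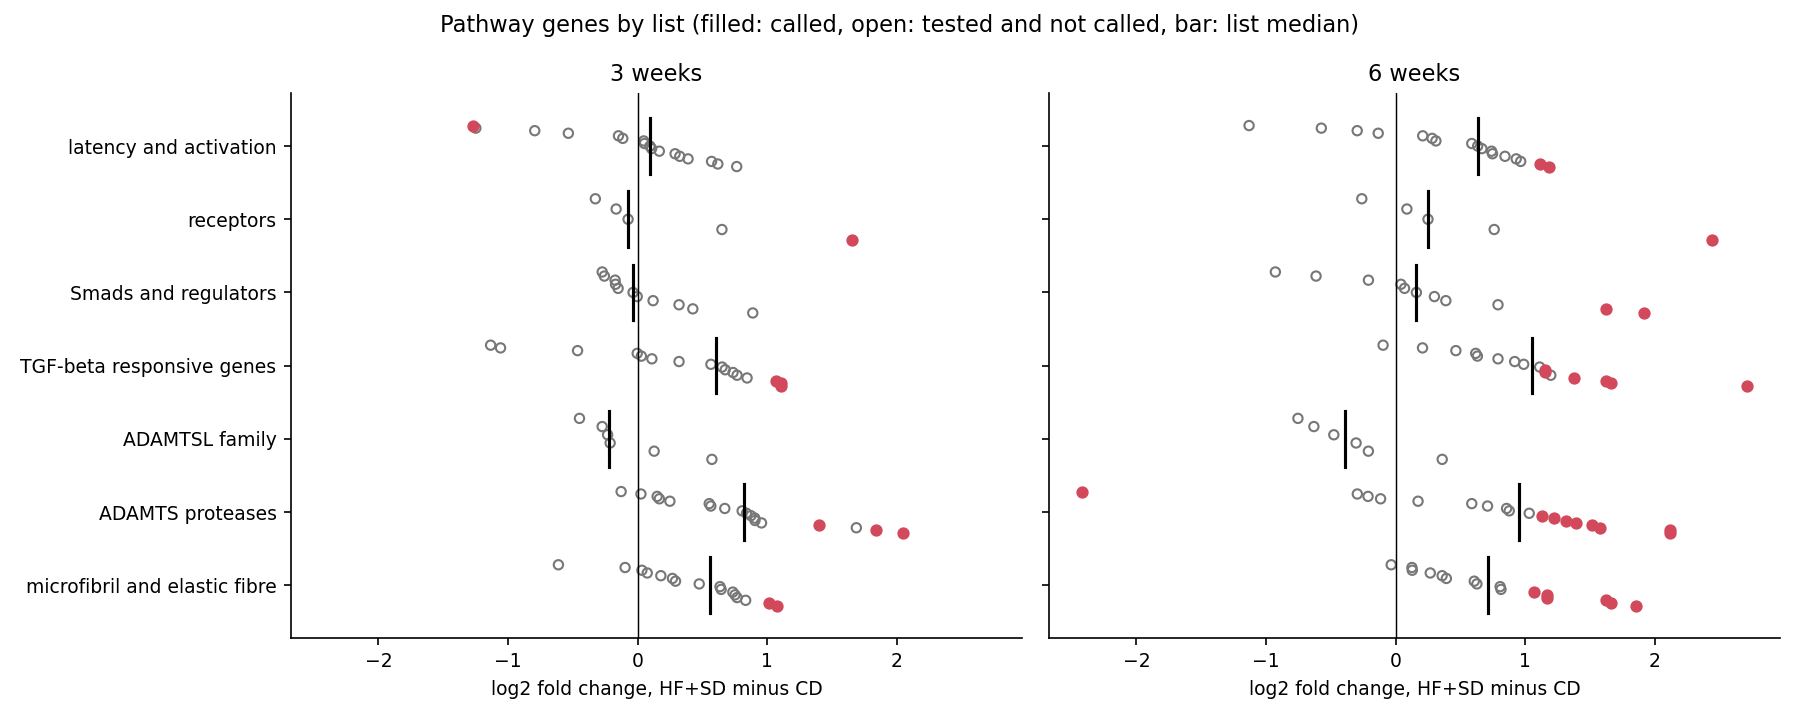
Log2 fold change (HF+SD minus CD) of each tested pathway gene by list at 3 and 6 weeks, red where called and open where not, with a bar at the list median. Called genes lie to the right of 0 except Itgb8 at 3 weeks (-1.27) and Adamts20 at 6 weeks (-2.42), and the ADAMTSL family holds none.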

How the data were processed

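The authors sequenced poly(A)-selected thyroid RNA as paired reads and deposited raw read counts per gene for 21640 genes in 16 libraries, and a second table whose signal is the same count divided by 1 size factor per library. Per the submitters' processing notes, Trim Galore 0.6.7, STAR, R 4.1.0, DESeq2 1.36.0 and the mm39 build were used. For the annotation, the read counter and the filter on genes, the sources used here name nothing. Symbols came from GENCODE M21 by identifier (20841 of 21640 matched), as did exonic lengths.

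The members and lists were chosen with earlier results of these data known. Diets were compared within each time point (8 libraries) with edgeR 4.0.16 in R 4.3.3 (TMM, filterByExpr, quasi-likelihood test, Benjamini-Hochberg adjustment over all tested genes), and a call needed both an adjusted p below 0.05 and a log2 fold change above 1 or below -1. SE is the absolute log2 fold change divided by the square root of F. The fits were tested on simulated data. Named pathway genes were, per list and time point, up to 3 called higher and 3 called lower by smallest adjusted p, and the most abundant gene of a marker list was named. The 8 genes called at both time points are named outside this rule. For likeness, log2 CPM used a prior count of 2. Mice of 1 group differed beyond sampling noise (chi-square per gene 15.1 to 871), and the p-values set the diet difference against the spread between single mice. The paper states that mice shared cages unless noted otherwise. The labels give no cage, so cage could not be taken into account. Alternatives were size factors of DESeq2, upper-quartile factors, thyrocyte and fibroblast scaling, DESeq2 1.42.0, other count filters, limma 3.58.1 on the deposited signal, no fold minimum, 1 fit of 16 libraries, a muscle score covariate and leaving out single libraries. Leaving out M45 and M48 together was added after seeing the data. Of the list entries, Adamts19, Matn1 and Calcr were not analysed here.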

Additional observations from a re-analysis of the deposited data

Results flagged for a closer look

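Of the 40 sets of 4 values (10 genes in 4 groups), 1 had a mouse far from the others by Dixon's criterion, for which chance alone gives about 1 in 20 sets. This was Ltbp3 in the CD mice of 6 weeks, where M22 had 253 CPM and the other 3 mice 149 to 166 CPM. The same mouse had the highest Ltbp2 level of the group (56.0 CPM), the lowest Fbn1 (10.6 CPM), Tgfb2 (2.21 CPM) and Tgfb3 (6.11 CPM), the lowest share of skeletal muscle counts (0.0712%) and the highest share of parathyroid counts (1.71%). Their part in its Ltbp3 level was not tested.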

How the results depend on the processing

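Over the 20 alternatives at 6 weeks, Adamtsl2, Ltbp2 and Tgfb1 stayed called in each, and the number of the 10 genes called was 3 to 5 (4 as reported). Without a fold minimum, the count over the 10 genes at 3 weeks was 6 instead of 2, which says nothing about them since that contrast chose them, and the count over pathway genes was 31 instead of 10. Scaling to thyrocyte genes put the all-gene median at -0.62 (6 weeks) and -0.49 (3 weeks). Under it, 15 pathway genes were called at 6 weeks instead of 24, Ltbp1 turned to -0.057 (adjusted p = 0.840 by edgeR) and Fbn1 to -0.30 (0.686), and Ltbp4 was lost at 0.42 (0.298), so each of these lay above the shifted median. Ltbp1, Ltbp3, Tgfb1 and Tgfb3 turned at 3 weeks in the same way, to between -0.24 and -0.12. Tgfb2 and Tgfb3 turned to 0.70 and 0.78 with the muscle covariate and to 0.56 and 0.64 without M45 and M48, and the cause was not tested. The count of all genes called at 6 weeks (2308) was 4600 under thyrocyte scaling, 3927 with no fold minimum, 1456 with the muscle covariate, 1494 and 1468 without M18 and M34, and 1470 without M45 and M48. At 3 weeks (803) it was 1645 under thyrocyte scaling and 2560 with no fold minimum. A minimum of 10 counts in every library removed Fbn2. No paired analysis was possible because the labels give no replicate numbers, and the groups hold different mice.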
